A study of Homo sapiens with 4 samples.

Results

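IGF2BP2 binding sites that span the border between the 5' UTR and the coding sequence (CDS) were examined in Jurkat cells, an established human T-cell acute lymphoblastic leukemia (T-ALL) line. The sites came from iRIP-seq, in which protein and RNA are crosslinked by ultraviolet light, IGF2BP2 is pulled down with its antibody, and the bound RNA is sequenced. The experiment had 2 IGF2BP2_IP libraries and 2 IGF2BP2_input libraries, all from Jurkat cells for which the labels name no treatment and no genetic change, and the labels do not say whether the replicates were separate cultures. Peak lists of the IGF2BP2_IP libraries were used, and the inputs were not analysed here other than through the authors' own removal of peaks that overlapped input peaks. A peak was counted as a start codon peak when the region annotation of the list named both 5' UTR and CDS, in any shares, and did not name 3' UTR. This gave 765 of 145715 peaks in replicate 1 and 1044 of 137934 peaks in replicate 2. A further 7 peaks in each list named 3' UTR as well and were left out.

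The 5' UTR is the stretch of a messenger RNA that the small ribosomal subunit scans before translation starts, and the start codon, almost always ATG in the gene, is where the CDS begins. IGF2BP2 belongs to a family of RNA-binding proteins with KH domains that read N6-methyladenosine (m6A) and are known for stabilizing messenger RNAs and affecting their translation. The sites of the family are best known in coding sequence and 3' UTRs. A list entry can be a start codon peak because of a minor transcript of the gene, so the class marks an annotated border and not always the start codon used by the main transcript.

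The letters at the border were read from the RefSeq windows around gene starts (GRCh38.p14) to see whether the peaks hold a start codon. They are shown because they tie the listed positions to the base at which translation starts. The examples are the 5 highest start codons in both lists with the whole context inside a window, ranked by the lower of both heights, and the ribosomal protein genes RPS13 and RPS23 chosen after their values were seen. Each run is genomic sequence on the strand of the gene, 5' to 3', with the start codon in capitals, and can run into an intron after it.
RPL3: tttgatggcgtgATGgtatgtgttgta
RPS3A: ctgaccagcaccATGgcggttggcaag
RPL10A: gcgtgagaagccATGaggtgagttggt
GUK1: aggtggccccggATGctgcggcgcccg
NOP53: tcctttgacaagATGgcggcaggaggc
RPS13: atcgccgccatcATGggtcgcatgcat
RPS23: ggcgccgacaggATGggtgagctgttg
The RPL3 context lies at chr22:39319583-39319609 on the minus strand, and its peak reached 36 tags (replicate 1) and 49 tags (replicate 2). RPS3A lies at chr4:151099641-151099667 on the plus strand with 18 and 13.5 tags, and RPL10A at chr6:35468423-35468449 on the plus strand with 11 and 16 tags. These genes encode proteins of the large and small ribosomal subunits. GUK1, a guanylate kinase, lies at chr1:228140291-228140317 on the plus strand with 8 and 9 tags. NOP53, a ribosome assembly factor, lies at chr19:47745548-47745574 on the plus strand with 8 and 8.60 tags. RPS13 lies at chr11:17077627-17077653 on the minus strand with 7 and 5 tags, and RPS23 at chr5:82278309-82278335 on the minus strand with 5 and 17 tags. In these 7 genes the start codon was 14 to 34 nt downstream of the RefSeq gene start.

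Among the shortest peaks that named 5' UTR and CDS and nothing else, 52 in replicate 1 and 61 in replicate 2 had their border inside a window. The first bases of the CDS were ATG in 47 of them in replicate 1 (90.4%, 95% Wilson interval 79.4% to 95.8%) and in 48 in replicate 2 (78.7%, 66.9% to 87.1%). The plus strand held 49 of the 52 and 57 of the 61, with ATG in 44 and 47. The minus strand had ATG in 3 of 3 and 1 of 4. Shortest peaks that also named intron or a noncoding exon had ATG in 4 of 8 and 7 of 12 on the plus strand. On the minus strand these had it in 12 of 12 and 6 of 8. Read 1 base earlier, ATG was found in 1 peak of each list, and read 1 base later in 0. Over both lists and all kinds of shortest peaks there were 99 different start codons. A purine stood at the third base before the ATG in 93 of 99 (93.9%), and G followed the ATG in 76 of 98 (77.6%). In the messenger these bases are known as the Kozak context of efficient start codons. The letters are genomic, so where an exon ends at the ATG the base that follows is intron. Such cases were not separated, and the count of G can include them. The same shares over start codons without a peak were not taken, so these counts do not set the peaks apart. The windows reach 50 nt past a gene start, so these counts cover start codons close to it.

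The peaks called at start codons were a small share of each list. They made up 0.525% of all peaks in replicate 1 (0.489% to 0.563%, the 95% Wilson interval) and 0.757% in replicate 2 (0.712% to 0.804%), with a mean of 0.641% ± 0.164 (SD, n = 2). The difference of 0.232 percentage points exceeded what counting error gives (Fisher's exact test, two-sided, p = 8.58e-15, adjusted p = 2.08e-14 over the 17 tests run). The test sets library against library, and there is a single condition. The lists also differ in their lowest height, 4 tags in replicate 1 and 5 tags in replicate 2. Of the peaks that named an exonic region, 2.77% (2.58% to 2.97%) and 2.93% (2.76% to 3.11%) were start codon peaks, and these intervals overlap. The intervals describe counting error alone, as PCR copies of a read do not count separate molecules.

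In 467 start codon peaks of replicate 1 (61.0%) and 601 of replicate 2 (57.6%), 5' UTR and CDS were the only regions named. Another 268 and 385 peaks also named intron, and 36 and 72 named a noncoding exon. The shortest peaks span 50 nt, given as a length of 51 nt in the lists, and numbered 570 (74.5%) and 709 (67.9%). The longest listed lengths were 351 and 501 nt. The start codon peaks carried 736 gene identifiers in replicate 1 and 992 in replicate 2, of which 403 were in both and 1325 in either list, and 1303 of these were given a symbol by position.

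A larger share of start codon peaks than of 3 neighbouring kinds of exonic peaks was high. The height of a peak is given in tags and was not adjusted for depth. It reads as a mean over the bins of 50 nt in a peak, as height times the number of bins was whole in every peak of both lists (tolerance 0.01). The depth is unknown because the lists give no number of reads per library. The median height was 5 tags in replicate 1 (lowest 4, highest 69) and 7 tags in replicate 2 (lowest 5, highest 90). There were 118 start codon peaks of at least 10 tags in replicate 1 (15.4%, 13.0% to 18.2%), against 1.68% of all peaks, and 270 in replicate 2 (25.9%, 23.3% to 28.6%), against 5.97% of all peaks. The neighbouring kinds of peaks lay between the start codon peaks and all peaks. Of the 5' UTR peaks without CDS, 6.31% and 14.2% reached 10 tags, of the peaks wholly inside CDS 3.22% and 9.22%, and of the peaks with CDS and 3' UTR 6.52% (4.65% to 9.06%) and 21.3% (18.3% to 24.6%), the last with an interval that meets that of the start codon peaks. The shortest length was held by 74.5% and 67.9% of the start codon peaks, 82.1% and 71.6% of the peaks with CDS and 3' UTR, and 89.6% and 85.7% of the peaks wholly inside CDS. A longer peak meets a border more easily, so the length is partly set by the way the peaks were chosen.

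Start codon peaks were found again in the other replicate more often than neighbouring kinds of exonic peaks. In replicate 1, 447 of 765 (58.4%, 54.9% to 61.9%) were overlapped by a peak of replicate 2 (same strand, 1 bp or more), against 9.19% of all peaks. In replicate 2, 488 of 1044 (46.7%, 43.7% to 49.8%) were overlapped by a peak of replicate 1, against 9.62% of all peaks. The share in replicate 1 was 27.9 percentage points above the 30.5% of peaks wholly inside CDS (Fisher's exact test, two-sided, p = 3.55e-50, adjusted p = 3.02e-49). It was 20.7 points above the 37.7% of 5' UTR peaks without CDS (the same exact test, p = 9.07e-23, adjusted p = 3.86e-22). It was 19.9 points above the 38.5% of peaks with CDS and 3' UTR (the same exact test, p = 5.18e-12, adjusted p = 1.10e-11). In replicate 2 the differences were 24.7, 17.8 and 13.5 points in the same order (the same exact test, adjusted p = 4.84e-58, 6.20e-23 and 7.34e-08). These tests compare sets of peaks within the libraries, and neighbouring peaks of a gene share its RNA. A longer peak also meets a partner more easily, and start codon peaks were less often of the shortest length. That length was held by 74.5% and 67.9% of them, against 88.7% and 84.0% of the 5' UTR peaks without CDS. The overlap was not compared at equal length.

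The overlap rose with the height of the start codon peak. In replicate 1 it was 42.0% under 6 tags, 73.6% from 6 to under 10 tags, 84.5% from 10 to under 20 tags, and 90.5% (19 of 21) at 20 tags or more. In replicate 2 the shares were 19.0%, 43.3%, 80.2% and 84.9% in the same bands. At 10 tags or more, 85.6% of the start codon peaks of replicate 1 were overlapped, against 64.4% of all peaks of that height, and 81.1% in replicate 2, against 54.0%. The gap to peaks wholly inside CDS stayed at that height, with 68.1% of them overlapped in replicate 1 (Fisher's exact test, p = 6.57e-04, adjusted p = 7.98e-04) and 58.5% in replicate 2 (the same exact test, p = 1.62e-11, adjusted p = 3.06e-11). The difference from 5' UTR peaks without CDS was 8.43 points in replicate 1, which did not pass the exact test (p = 0.103, adjusted p = 0.103), and 10.4 points in replicate 2, which did (the same exact test, p = 0.00281, adjusted p = 0.00318).

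Most overlapping partners were themselves start codon peaks. Of the 447 overlapped peaks of replicate 1, 408 (91.3%) were met by a start codon peak of replicate 2, 13 by a 5' UTR peak without CDS and 10 by a peak wholly inside CDS. Of the 488 overlapped peaks of replicate 2, 408 (83.6%) were met by a start codon peak and 45 by a 5' UTR peak without CDS. The kind of a peak follows from its position, so peaks at the same place are of the same kind. These shares are therefore partly set by the overlap itself. The 408 pairs lay in 392 genes, and 274 pairs had the same interval in both lists. The height was larger in replicate 2 in 325 pairs, larger in replicate 1 in 64 and equal in 19. The median ratio of replicate 2 to replicate 1 was 1.40 (quartiles 1.11 and 1.80). In the 274 pairs of the same interval it was also 1.40 (1.17 and 1.83), with 217 pairs higher in replicate 2 and 40 in replicate 1. Where the intervals differ, as in RPL27A, UBE2S and LDHA below, the heights are means over different lengths and their order can depend on that. Across the 408 pairs the heights correlated with Pearson's r = 0.69 on the log2 scale and Spearman's rho = 0.55, given as a description, since the pairs come from the same 2 libraries and from genes that differ in abundance. Both peaks reached 10 tags in 88 pairs and 20 tags in 16 pairs.

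The highest pair lay on RPS20, which encodes a protein of the small ribosomal subunit. Its peak at chr8:56074351-56074400 on the minus strand had 69 tags (replicate 1) and 82 tags (replicate 2), and was the highest peak of the gene in both lists. It held 47 nt of 5' UTR and 3 nt of CDS. The region shares do not give where in the peak the CDS bases lie. Among the 25 genes with the highest pairs, 13 encode ribosomal proteins. The pair of RPL27A at chr11:8683201-8683250 in replicate 1 had 52 and 37 tags, and held a single base of 5' UTR. RPL3 had 36 and 49 tags at chr22:39319551-39319600, the peak that holds the start codon shown above. RPL23A had 33.2 and 41.5 tags at chr17:28720701-28720900, with 4 nt of 5' UTR. Further ribosomal protein genes of this set were RPLP2, RPL31, RPL22, RPL13, RPS3A, RPL28, RPL35 and RPL36. The lower height of their pairs was between 17.5 tags in RPL36 and 27 tags in RPLP2. The pair given the symbol RPL22 by position carried the identifier ENSG00000285629.1. The same symbol was also given to ENSG00000116251.11, whose start codon peak of 7 tags in replicate 2 had no partner.

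The elongation factor gene EEF2, whose protein moves the ribosome along the messenger, had 36 and 73 tags at chr19:3985351-3985400, with 20 nt of 5' UTR, 3 nt of CDS and intron in the rest. UBE2S, a ubiquitin-conjugating enzyme of the mitotic anaphase-promoting complex, had 28 tags at chr19:55407551-55407650 in the first replicate and 90 tags at chr19:55407551-55407600 in the second. This peak of UBE2S was the highest start codon peak of replicate 2. The glycolytic enzyme gene GAPDH had 33 and 50 tags at chr12:6534801-6534850, with 32 nt of 5' UTR and 18 nt of CDS. Chromatin protein genes followed. HMGN1, a nucleosome-binding protein, had 28 and 56 tags at chr21:39348901-39348950, and the histone variant gene H2AZ1 had 22 and 59 tags at chr4:99950151-99950200. TOP2A, a DNA topoisomerase of dividing cells, had 20 and 21 tags, and the DNA-bending protein gene HMGB2 had 17.5 and 17 tags. In all of these but HMGB2 replicate 2 had the larger height.

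The remaining genes of the 25 were CAPZB and WDR1 of actin filaments (23 and 30 tags, and 22 and 29 tags), SNRPD2 and RBM25 of splicing (21 and 33 tags, and 17 and 21 tags), and TCF7, a transcription factor of T cells (21.5 and 18 tags). TCF7 had 72 peaks of all kinds in replicate 1 and 99 in replicate 2. The start codon peak of this pair was the highest of them in replicate 1. In replicate 2, 5 peaks were higher, among them the other start codon peak of TCF7, with 20.5 tags. In 11 of the 25 genes the start codon peak was the highest peak of the gene in both lists. The CDS part was exactly 3 nt in replicate 1 in 6 of the 25 genes, RPS20, EEF2, UBE2S, CAPZB, H2AZ1 and RPL35. The pair that ranked next, on HMGN2, had a lower height of 16 tags.

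A start codon peak was often not the main site of its gene. Of the genes with other peaks too, it was the highest peak, ties included, in 258 of 701 in replicate 1 (36.8%) and in 279 of 935 in replicate 2 (29.8%). The genes with a start codon peak had a median of 7 peaks of all kinds in either list. One start codon peak was listed for 708 of 736 gene identifiers in replicate 1 and for 943 of 992 in replicate 2. Summed over both lists RPL27A had the most, 5, with 3 in replicate 1 and 2 in replicate 2. It was followed by 18 identifiers tied at 4, among them PTBP1, RPS3A and TCF7 with 2 in each list and EIF4G1 with 1 in replicate 1 and 3 in replicate 2.

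Some high start codon peaks had no partner of any kind in the other list. In replicate 1 the highest of them was on RPL23A at chr17:28720001-28720050, with 68 tags. It was followed by a peak of 49 tags at chr2:216498851-216498900 on an identifier that was not given a symbol, ENSG00000197756.10. In replicate 2 the highest were on the ribosomal protein gene RPS27 (89 tags at chr1:153990751-153990800), on the splicing factor gene SF1 (52 tags) and on RPS25 (47 tags). These genes were chosen after their values were seen.

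Ribosomal protein genes carried start codon peaks more often than other genes with a peak in a CDS or UTR. Of 71 cytosolic ribosomal protein genes with such a peak in replicate 1, 42 had a start codon peak (59.2%), against 11.6% of all named genes, and 49 of 74 in replicate 2 (66.2%), against 14.6%. In both lists it was 41 of the 74 with such a peak in either list (55.4%), against 4.85% of all named genes. In all 41 genes a pair of start codon peaks overlapped. The highest start codon peak of these genes had a median of 11.5 tags in replicate 1 (range 4 to 69, 42 genes) and 17 tags in replicate 2 (range 5 to 89, 49 genes), against 5 and 7 tags over all named genes. These messengers are among the most abundant of growing cells, and the abundance of each RNA, which the inputs would give, was not tested.

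Other genes of translation and RNA handling were also listed, with smaller counts. Of the elongation factor and poly(A)-binding protein genes, 5 of 8 had a start codon peak in both lists. In 4 of them these peaks overlapped, while those of EEF1D lay at different places. EEF2 is given above, TPT1, a translationally controlled growth protein, had 14 and 27 tags at chr13:45341001-45341100, and EEF1B2, an exchange factor of elongation, had 18 and 13.5 tags. Of the translation initiation factor genes, 4 of 36 had one in both lists. The highest was EIF5A with 13 and 40 tags at chr17:7309601-7309650. EIF4G1, the scaffold of the cap-binding complex, had 8 and 6 tags at its shared site, and EIF3F had 4 and 16 tags. These are 11.1% of the initiation factor genes and 62.5% of the elongation group, against 4.85% of all named genes, and the differences were not tested.

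Of the hnRNP and SR protein genes, which package and splice RNA, 8 of 35 had a start codon peak in both lists (22.9%, against 4.85% of all named genes). RBMX had 11 and 18 tags, HNRNPA3 12.5 and 9.67 tags, and PTBP1 10 and 12 tags at the first of its sites. Of the glycolytic enzyme genes it was 5 of 13 (38.5%, against the same 4.85%), with LDHA at 20 and 13 tags and PFKP at 8 and 9 tags after GAPDH. Of the nucleolar and high mobility group protein genes it was 3 of 13 (23.1%), all of the second kind, HMGN1, HMGB2 and HMGN2 (16 and 24.7 tags).

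Chaperone and proteasome genes lay close to the share over all named genes. Of the chaperone genes, 3 of 44 had a start codon peak in both lists (6.82%), CCT3 of the cytosolic chaperonin with 15 and 19 tags, HSP90B1 with 14.7 and 16.2 tags, and HSP90AB1 with 6.33 and 14.3 tags. Of the proteasome subunit genes it was 2 of 31 (6.45%), PSMD11 with 4.50 and 6 tags and PSMD9 with 4 and 8 tags. Of the actin and tubulin group it was 2 of 10, a larger share than the 4.85% of all named genes. The group is small and the difference was not tested. Its genes with such peaks were TUBB with 5 and 9 tags and CFL1, an actin-severing protein, with 4 and 6 tags. No start codon peak of these proteasome, actin or tubulin genes shared by both lists exceeded 9 tags.

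Of the IGF2BP family and the m6A machinery, 1 of 15 genes had a start codon peak in both lists (6.67%, against 4.85% of all named genes). This was WTAP, a subunit of the m6A writer complex, with 8 tags in each replicate at chr6:159736251-159736300. A short list of MYC, ACTB, GAPDH and other genes had 3 with a CDS or UTR peak, too few to read a share from. Of these 3, GAPDH alone had start codon peaks in both lists (33.3%, against 4.85% of all named genes). The study used GAPDH as a negative control for m6A, and m6A at this peak was not examined here. Of 19 T-ALL genes, 1 had a start codon peak in both lists (5.26%, against 4.85% of all named genes), the ribosomal protein gene RPL11, with 9 and 16.5 tags at its shared site. In replicate 2, 6 of 19 had one (31.6%, against 14.6% of all named genes), and in replicate 1 it was 1 of 18 (5.56%, against 11.6%). The T-ALL genes with a start codon peak in replicate 2 alone included BCL11B (12.5 tags), MYB (10 tags), DNM2 (8 tags) and RUNX1 (6 tags). BCL11B, MYB and RUNX1 are transcription factors of blood cells, and DNM2 is a membrane-cutting GTPase. Of these 4 peaks, the one on MYB was overlapped by a peak of replicate 1, which was not a start codon peak. The peaks on BCL11B and MYB were at or above the upper quartile of the start codon peaks of replicate 2, and those on DNM2 and RUNX1 were nearer to its lowest height. A peak that is missing from replicate 1 does not by itself show a lack of binding.

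As a check of the cell line, 10 of 13 T cell genes had a peak of any kind on their strand in both lists, against 1 of 10 genes of other blood lineages. Over all protein-coding genes of RefSeq it was 6637 of 20037. CD3D, CD3E and CD3G of the T cell receptor complex were listed in both, LAT in neither, CD2 in replicate 1 alone and CD28 in replicate 2 alone. Among the other lineages PAX5 had 5 peaks in each list, none of more than 6 tags, and CD14 and HBB had none. ZAP70, a kinase of the T cell receptor, had a start codon peak of 13 and 11.5 tags at chr2:97724001-97724100. CD7, a surface protein of T cells, had one of 5 and 9 tags.

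The start codon had no fixed place inside the peaks. In the shortest peaks that named 5' UTR and CDS and nothing else, the median length of 5' UTR was 22.5 of 50 nt in replicate 1 (quartiles 11 and 37 nt, 364 peaks) and 23 nt in replicate 2 (quartiles 12 and 36 nt, 428 peaks). By steps of 10 nt of 5' UTR, 90, 76, 69, 65 and 64 peaks of replicate 1 fell in the steps from 1 to 50 nt, and 97, 91, 94, 72 and 74 of replicate 2. Peaks lie on a fixed grid of 50 nt, so a preferred distance from the start codon shorter than that cannot be read from single peaks. Among all shortest start codon peaks, 34 in replicate 1 (5.96%) and 42 in replicate 2 (5.92%) held exactly 3 nt of CDS.

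Start codon peaks lay more often on the plus strand of the genome than other peaks did, a pattern looked at after the peaks had been seen. In replicate 1, 500 of 765 were on the plus strand (65.4%, 61.9% to 68.6%) and in replicate 2, 671 of 1044 (64.3%, 61.3% to 67.1%). Of the peaks wholly inside CDS, 2913 of 5846 and 3520 of 7047 were on the plus strand, and the differences of 15.5 and 14.3 points passed the test in both lists (Fisher's exact test, two-sided, p = 4.54e-16 and 3.41e-18, adjusted p = 1.29e-15 and 1.16e-17). The 5' UTR peaks without CDS stood between, at 55.4% and 56.5% (the same exact test, adjusted p = 3.28e-06 and 2.77e-05). The genes with any CDS or UTR peak were split 51.1% and 51.4%. At 10 tags or more the share of start codon peaks was 66.9% and 65.9%. Among ribosomal protein genes, 35 of 43 on the plus strand and 15 of 31 on the minus strand had a start codon peak in either list (81.4% and 48.4%). Over all named genes with a CDS or UTR peak these shares were 19.7% on the plus strand and 11.8% on the minus strand.

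The distance from the gene start differed between the strands as well. For genes with a RefSeq start, the distance was taken from the nearest start to the 5' edge of the peak. A peak held the gene start itself in 46 of 433 plus-strand cases in replicate 1 (10.6%) and 75 of 570 in replicate 2 (13.2%), but in 3 of 218 (1.38%) and 6 of 312 (1.92%) on the minus strand. Within 500 nt of the start, the median distance was 45 and 33 nt on the plus strand and 138 and 129 nt on the minus strand. Peaks over 1000 nt away made up 34.9% and 33.5% on the plus strand and 21.6% and 21.5% on the minus strand. The 5' UTR peaks without CDS showed the same order, with medians of 43 and 44 nt on the plus strand and 147 and 156 nt on the minus strand. Without the peaks from 49 nt before to 50 nt after a gene start, 313 of 503 (62.2%) and 401 of 678 (59.1%) start codon peaks were on the plus strand. The distances were not compared by a test, and the cause of the difference between strands was not tested.

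The first transcribed bases of the genes were compared as a further feature that the choice of peaks did not use. Messengers of ribosomal proteins are known to begin with a run of pyrimidines, the 5' terminal oligopyrimidine tract that ties their translation to growth signals. Of the 399 named genes with a start codon peak in both lists, 346 had a RefSeq window. The first 5 transcribed bases were all C or T, read on the transcribed strand, in 26 of 33 ribosomal protein genes among them (78.8%). The other genes had 13.4%, all genes with a CDS or UTR peak 8.46%, and the share over all protein-coding genes with a window was 6.72%. Ribosomal protein genes without a start codon peak were not counted. The 78.8% therefore describes these genes and does not tie the tract to the peaks. The letters GGAC, a short form of the m6A sequence motif, were present on the transcribed strand in the first 50 bases in 25.4% of the genes with a start codon peak in both lists and in 25.2% of all genes of the table. The median GC content of the window was 65.3%, against 65.0% in genes with a CDS or UTR peak and 62.3% in all genes. A gene with several windows counted when any of them held the letters. These shares are descriptions without a test.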

How the data were processed

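The deposited peak lists of the 2 IGF2BP2_IP libraries give, per peak, a position, strand, height as a signal in tags, p-value, length, region shares and Ensembl gene identifier. Per the labels and the study's methods, the authors aligned paired-end reads to GRCh38 with TopHat2, kept uniquely mapped reads, called peaks in each library by the ABLIRC strategy against simulations per gene, and removed peaks overlapping input peaks. The annotation behind the regions is not given in the sources used here. The height is not adjusted for depth, and the authors' p-value was used only as a filter.

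Positions were read as half-open intervals starting at 0 and are printed from 1, in GRCh38. An identifier took the symbol of the only RefSeq protein-coding gene (GRCh38.p14) on its strand, where known, that held at least 80% of its CDS and UTR peaks with a margin of 1000 nt, and 8274 of 8527 identifiers were named. Several identifiers could take the same symbol, which was so for 51 symbols. Shares have 95% Wilson intervals, and differences between sets of peaks were taken to Fisher's exact test, two-sided, with Benjamini-Hochberg adjustment over the 17 tests. No test over replicates was made, since there is a single condition with 2 libraries. Named genes were the 25 with the highest overlapping pairs, the T-ALL genes with a start codon peak, the first 3 of each other list and those with the most start codon peaks. The members, lists and rules were chosen with earlier results of these data known. Strand, gene start distance, sequence at the border and promoter letters were looked at after seeing the data. Some genes that the rules name are not reported here. The functions were tested on simulated data. Python 3.11.15, numpy 2.4.6, pandas 2.3.3, scipy 1.17.1 and matplotlib 3.10.9 were used.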

Additional observations from a re-analysis of the deposited data

How the results depend on the processing

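A height of at least 10 tags left 118 and 270 start codon peaks and a p value under 0.001 left 303 and 528, while 467 and 601 named 5' UTR and CDS only. The mean share was 4.04% of the peaks of at least 10 tags and 2.85% of exonic peaks, and 0.525% to 0.757% with either replicate left out. The share of replicate 1 overlapped was 65.5% with touching peaks, 78.0% with both lists at 10 tags or more, 53.3% with start codon peaks as partners, 52.2% for peaks naming 5' UTR and CDS only, and 46.7% for replicate 2 against replicate 1. Genes in both lists numbered 83 at 10 tags or more and 201 with 5' UTR and CDS only, and ribosomal protein genes 27 at 10 tags or more, the last chosen after seeing the data. At minimum heights of 8 and 15 tags, 23.8% and 5.75% of the start codon peaks passed in replicate 1, and 43.5% and 10.7% in replicate 2. The difference in overlap from 5' UTR peaks without CDS was 8.43 points at 10 tags or more (Fisher's exact test, p = 0.103), where fewer peaks were compared. Each of these alternatives changes which peaks are counted, and other causes were not tested. The result was counted as kept in 26 of the 47 alternatives. For differences between sets of peaks, this meant the same direction and the same side of the threshold. These include the 8 on the plus-strand share, chosen after seeing the data, with differences of 9.19 to 26.0 points. Counts and shares were not tested, and for them kept means a value near the reported one. At least 0.1 of the length in each of 5' UTR and CDS left 589 of 765 peaks in replicate 1. It left 799 of 1044 peaks in replicate 2, and 289 of 403 genes in both lists. No paired analysis was possible because the inputs that share replicate numbers with the IGF2BP2_IP libraries have no values analysed here. Depth is unknown, so peaks near the lowest heights of 4 and 5 tags cannot be told from peaks missed in the other library.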
